A study of Rattus norvegicus with 52 samples.

Results

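Messenger RNA of 10 genes of fatty acid synthesis (Fasn, Scd, Acaca, Acly, Acss2, Elovl6, Elovl1, Srebf1, Aacs and Fads1) was followed in whole rat lung after instillation of surfactant disinfectants into the trachea. The genes were taken by name from the 34034 gene symbols in the count tables. Each was present in the tables, and 10 of 10 passed the filter on low counts. The animals were Sprague Dawley rats labelled wild type. Every rat received 1 instillation, either of distilled water (Control) or of a quaternary ammonium compound, a cationic surfactant, named ABD, ADEB18, BKC or DDAC in the labels. The dose values were 0.125, 0.25 and 0.5 for ABD and ADEB18, 0.25, 0.5 and 1 for BKC, and 0.0625, 0.125 and 0.25 for DDAC. The labels give neither the unit of these values, the age and sex of the rats, nor the time between instillation and sampling. Each of the 13 groups held 4 libraries, 52 in all, and nothing else distinguishes the groups in the labels. BKC and DDAC are common abbreviations of benzalkonium chloride and didecyldimethylammonium chloride, which the labels do not spell out.

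Fatty acids are built in the cytosol from acetyl-CoA. ATP citrate lyase (Acly) makes it from citrate, acetyl-CoA synthetase (Acss2) makes it from acetate, and acetoacetyl-CoA synthetase (Aacs) activates the ketone body acetoacetate for lipid synthesis. Acetyl-CoA carboxylase (Acaca) converts acetyl-CoA to malonyl-CoA, from which fatty acid synthase (Fasn) assembles palmitate. Elongases (Elovl6, Elovl1) lengthen the chain, and desaturases (Scd, Fads1) add double bonds. Srebf1 encodes a membrane-bound transcription factor that activates much of this pathway. In the lung, alveolar type 2 cells use the products for the phospholipids of surfactant, and macrophages and fat cells around the airways and vessels express many of the same genes.

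Total counts ran from 8026084 to 13852249 per library, with 16932 to 19355 genes detected, and the TMM scaling factors lay between 0.96 and 1.04. The summed level of 12 alveolar type 2 markers was 23373 to 39028 CPM (counts scaled to a common library size) over the 52 libraries, and none of these markers was at 0, so the lung label fits its markers. The 10 genes together summed to 818 to 1301 CPM per library. The lowest count of any of them in a library was 26, for Aacs. The counts come from whole lung tissue, so that fewer cells of a type and less RNA per cell cannot be told apart. Below, a log2 fold change is given with its standard error, and a group level in CPM with its SD (n = 4). A gene is called where the edgeR p-value, adjusted over all 17796 genes tested, is under 0.05. Where library ranges are said not to overlap, this describes only the libraries named. The share of all genes without overlap was not counted, so it lends no weight to a difference that was not called.

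Against Control, Scd RNA was lower after BKC at 0.5 and 1 and after DDAC at 0.25, Aacs RNA was higher after BKC at 1 and ADEB18 at 0.5, and Elovl1 RNA was higher after BKC at 1. The other 7 genes were called in none of the 12 comparisons with Control. Over the 120 tests of a gene against Control, 6 were called and 22 had an unadjusted p under 0.05. BKC at 1 gave 3 called genes of 10, where 10.4% of all genes tested were called. One gene was called for BKC at 0.5, against a background of 9.15%, 1 for ADEB18 at 0.5, against 4.66%, and 1 for DDAC at 0.25, against 2.47%. In the remaining 8 comparisons edgeR and DESeq2 called none of the 10 genes, and 0 to 2 genes had an unadjusted p under 0.05 in edgeR. The backgrounds there were 0, 0.0225 and 0.0169% for ABD at 0.125, 0.25 and 0.5, 0.0393% for ADEB18 at 0.125 and at 0.25, 0.208% for BKC at 0.25, and 2.32 and 1.48% for DDAC at 0.0625 and 0.125. The share of these genes called was therefore near that of all genes at BKC 0.5 and rested on 1 to 3 genes elsewhere.

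**Figure D1:**
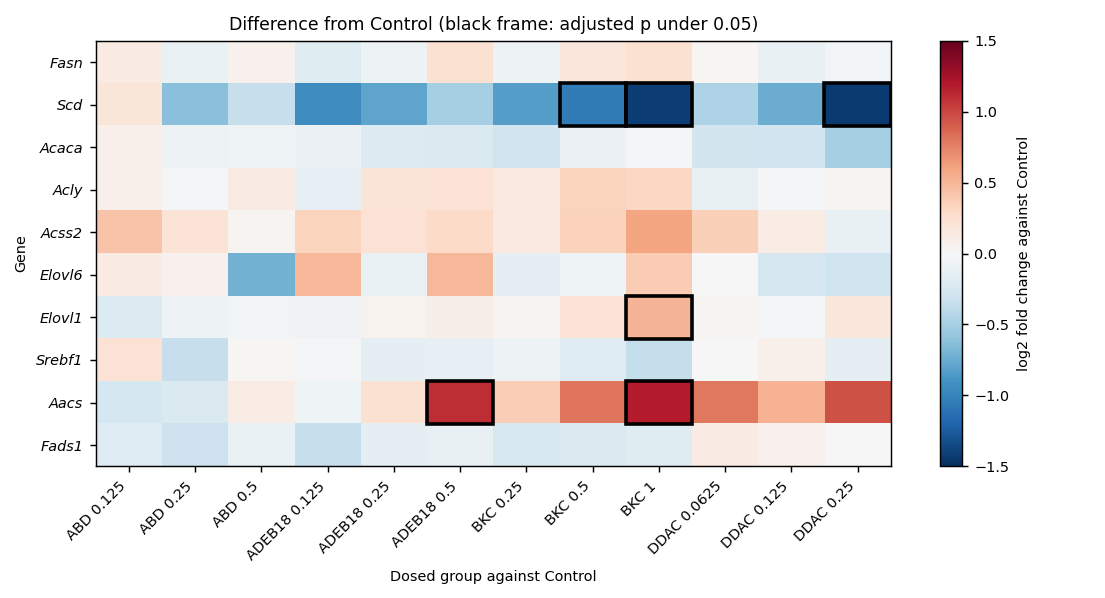
Log2 fold change of each gene (rows) in each dosed group against Control (columns, compound and dose value), on a colour scale from -1.5 (blue) to 1.5 (red). Black frames mark the 6 tests with an adjusted p under 0.05, which fall in the rows of Scd, Elovl1 and Aacs.

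The test for any difference among the 13 groups called 5 of the 10 genes, against 24.2% of all genes tested. These were Aacs (adjusted p = 0.000221), Elovl1 (0.000325), Scd (0.00119), Acly (0.0205) and Fads1 (0.0488). The ratio of the highest to the lowest group mean was 3.07 for Scd, 2.71 for Aacs, 1.64 for Elovl1, and 1.38 for both Acly and Fads1. When the groups were ordered by mean level, the ranges of neighbouring groups overlapped in 12 of 12 neighbouring pairs for each of the 10 genes, so no group stood apart from the next. Ordering by mean places groups of close level side by side, so this overlap does not show that the order was graded.

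The genes of precursor supply (Aacs, Acly and Acss2) are taken first, and of these only Aacs, which activates acetoacetate, was called against Control. Aacs was at 8.76, 6.72, 8.79 and 8.35 CPM in the Control libraries. After ADEB18 at 0.5 it was at 16.7, 24.7, 15.9 and 13.4 CPM, and after BKC at 1 at 21.1, 13.2, 22.6 and 16.8 CPM. All 8 of these dosed libraries lay above the highest Control library. The log2 difference from Control was 1.11 ± 0.30 for ADEB18 at 0.5 (edgeR adjusted p = 0.0248) and 1.17 ± 0.30 for BKC at 1 (adjusted p = 0.00873), that is 2.16-fold and 2.26-fold. The call for ADEB18 at 0.5 was lost without Control replicate 2 (adjusted p = 0.0781), without Control replicate 4 (0.0684) or without ADEB18 0.5 replicate 2 (0.122), whereas that for BKC at 1 was kept in 8 of 8 such fits.

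Aacs was also above the Control range in each library after BKC at 0.25 (8.87 to 12.3 CPM), BKC at 0.5 (11.7 to 16.8 CPM), DDAC at 0.0625 (9.64 to 17.4 CPM) and DDAC at 0.25 (11.4 to 21.3 CPM). These differences, 0.36 ± 0.30, 0.80 ± 0.30, 0.80 ± 0.30 and 0.95 ± 0.30 on the log2 scale, did not pass the test (edgeR adjusted p = 0.725, 0.0877, 0.155 and 0.0743). DESeq2 called the last of these, DDAC at 0.25. After ABD the means were 6.79, 7.06 and 8.78 CPM at 0.125, 0.25 and 0.5, beside 8.15 CPM in Control. At the highest dose of ADEB18 the gene was higher than at the lowest, where it was at 7.82, 6.68, 8.22 and 8.67 CPM. That difference was 1.17 ± 0.30 (adjusted p = 0.0255), in a comparison that called 1 of the 10 genes and 2.44% of all genes. It was lost without ADEB18 0.125 replicate 1, 2 or 3 (adjusted p = 0.0648, 0.0642 and 0.0708) and without ADEB18 0.5 replicate 2 or 3 (0.136 and 0.0561). For BKC at 1 against 0.25 the difference of Aacs was 0.81 ± 0.30 (adjusted p = 0.124).

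Acly, the citrate-cleaving enzyme, was at 259, 293, 234 and 229 CPM in Control. It was at 292, 393, 283 and 315 CPM after BKC at 0.5, and at 306, 323, 356 and 279 CPM after BKC at 1, so both dosed groups overlapped the highest Control library. The log2 differences of 0.34 ± 0.12 and 0.32 ± 0.12 did not pass the test (edgeR adjusted p = 0.0700 and 0.0866), although DESeq2 called that at 0.5. Its lowest group mean was 233 CPM after ADEB18 at 0.125, and 0.34 ± 0.12 separated that group from ADEB18 at 0.5 (adjusted p = 0.122), with no overlap of their libraries.

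Acss2, which activates acetate, spread widely in Control, at 17.3, 10.8, 22.9 and 10.4 CPM. Its 4 libraries after BKC at 1 were close together, at 21.5, 24.2, 23.8 and 23.4 CPM, and the difference from Control was 0.59 ± 0.24 (edgeR adjusted p = 0.0994). Of the 12 dosed group means, 1 lay below that of Control, that of DDAC at 0.25.

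The enzymes that build the chain were called in none of the 34 comparisons. Fasn, the synthase, was at 315, 294, 248 and 207 CPM in Control, and its 12 differences from Control ran from -0.18 to 0.23 on the log2 scale. Its highest group mean was 312 CPM after ADEB18 at 0.5 and its lowest 235 CPM after ADEB18 at 0.125, which differed by 0.41 ± 0.16 (edgeR adjusted p = 0.169). Acaca, the carboxylase, was at 58.1, 44.3, 60.3 and 57.4 CPM in Control and at 42.6, 38.5, 43.6 and 30.8 CPM after DDAC at 0.25. These ranges did not overlap, but the difference of -0.50 ± 0.15 did not pass the test (adjusted p = 0.0607), although DESeq2 called it. Its mean was below that of Control in 11 of 12 dosed groups.

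**Figure D2:**
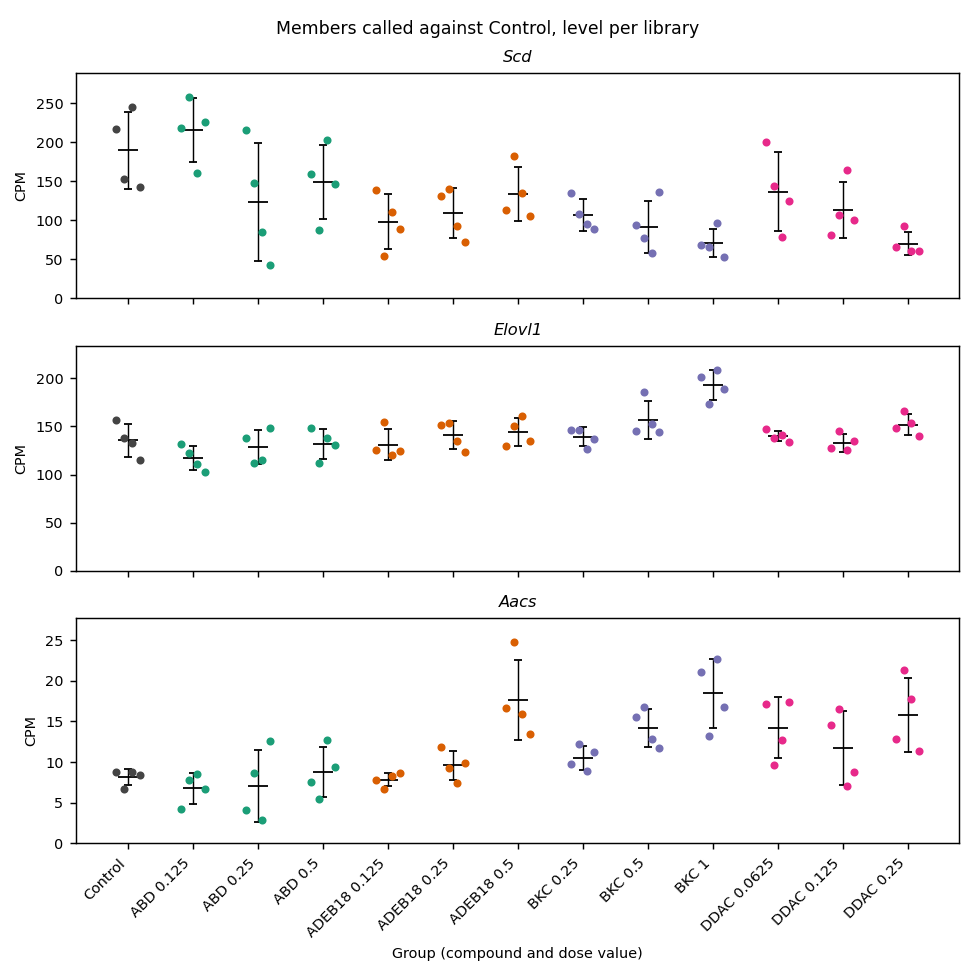
Level in CPM (y axis, from 0) of Scd, Elovl1 and Aacs in each of 4 libraries per group (points), with the group mean and SD (black bars). Scd has its lowest means after BKC at 1 and DDAC at 0.25, and Elovl1 and Aacs have their highest mean after BKC at 1.

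Of the elongases, Elovl1, which extends saturated acyl chains to very long lengths, was called after BKC. It was at 157, 138, 133 and 115 CPM in Control and at 202, 173, 209 and 189 CPM after BKC at 1. Each of those 4 libraries lay above every Control library, and the difference was 0.51 ± 0.11 (edgeR adjusted p = 0.00163), or 1.42-fold, which is under the 2-fold that the series description uses. The call was kept when any 1 of the 8 libraries was left out. The levels after BKC at 0.25 were 147, 147, 127 and 137 CPM, and at 0.5 they were 145, 186, 153 and 144.0 CPM. BKC at 1 against 0.25 differed by 0.47 ± 0.11 (adjusted p = 0.00838), in a comparison that called 1 of the 10 genes and 3.99% of all genes; without BKC 0.25 replicate 3 the adjusted p was 0.0508. Over the other 3 compounds the group means of Elovl1 lay between 117 and 152 CPM, beside 136 CPM in Control, and no group of these passed the test against Control.

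Elovl6, which extends the C16 products of Fasn, was detected at a low level, with 28 to 194 counts per library. It was at 10.01, 5.72, 9.25 and 7.81 CPM in Control. Its lowest group was ABD at 0.5, at 4.596, 6.13, 6.35 and 3.07 CPM, and its highest ADEB18 at 0.5, at 10.9, 12.9, 10.03 and 12.8 CPM. Neither passed the test against Control, with differences of -0.71 ± 0.33 for ABD (edgeR adjusted p = 0.655) and 0.50 for ADEB18. Within groups it was uneven, for instance 5.71, 17.1, 8.08 and 4.83 CPM after ABD at 0.125.

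Scd, the stearoyl-CoA desaturase that makes oleate, had the widest range of group means of the 10 genes. It was at 217, 153, 245 and 142 CPM in Control. The levels were 94.3, 77.7, 58.1 and 136 CPM after BKC at 0.5, and 67.99, 66.2, 96.8 and 53.1 CPM after BKC at 1. DDAC at 0.25 gave 65.8, 92.3, 61.2 and 61.1 CPM. All 12 of these libraries lay below the lowest Control library. The differences were -1.05 ± 0.32 for BKC at 0.5 (edgeR adjusted p = 0.0303), -1.42 ± 0.33 for BKC at 1 (0.00315) and -1.43 ± 0.33 for DDAC at 0.25 (0.0154), so that the level was 0.48, 0.37 and 0.37 of that in Control. The call for BKC at 1 was kept in 8 of 8 fits with 1 library left out. That for DDAC at 0.25 was lost without DDAC 0.25 replicate 3 (adjusted p = 0.0544). That for BKC at 0.5 was lost in 5 of 8 fits: without Control replicate 1 (0.0723) or 3 (0.0897), or without BKC 0.5 replicate 1 (0.063), 2 (0.0889) or 3 (0.171).

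Mean Scd was below that of Control in 11 of 12 dosed groups, the exception being ABD at 0.125. All 4 libraries were below the Control range after ADEB18 at 0.125 (54.8 to 138.9 CPM), ADEB18 at 0.25 (72.8 to 139.7 CPM) and BKC at 0.25 (88.4 to 135 CPM). Their differences of -0.95 ± 0.32, -0.80 ± 0.32 and -0.83 ± 0.32 did not pass the test (edgeR adjusted p = 0.334, 0.699 and 0.298). ADEB18 at 0.5 was at 113, 182, 135 and 106 CPM (-0.50, adjusted p = 0.405), so the ADEB18 groups showed no step down with dose. For DDAC the means were 137, 113 and 70.1 CPM in order of dose, and the highest dose differed from the lowest by -0.97 ± 0.32 (adjusted p = 0.577). That comparison called 0.0225% of all genes and none of the 10 by edgeR or DESeq2. ABD at 0.25 held both a library of 216 CPM and one of 43.4 CPM, the lowest of the 52.

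Scd2, a close relative of Scd that is listed as a gene of its own, did not pass the test after BKC at 1 (-0.37 ± 0.17, edgeR adjusted p = 0.166) or DDAC at 0.25 (0.05 ± 0.17, 0.911). The files do not show how reads that fit both copies were counted.

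Fads1, a desaturase of polyunsaturated fatty acids, was at 103, 96.7, 90.3 and 85.8 CPM in Control. It was at 83.0, 65.1, 72.9 and 75.6 CPM after ADEB18 at 0.125, a range below that of Control, with a difference of -0.34 ± 0.13 that did not pass the test (edgeR adjusted p = 0.396). The libraries after ABD at 0.25 (66.2 to 83.5 CPM) and BKC at 0.25 (74.8 to 82.3 CPM) also lay below the Control range, and neither difference was called. The highest group of Fads1 was DDAC at 0.0625, at 114, 102, 95.6 and 98.8 CPM. One library of each of the upper BKC doses was low against the rest of its group, at 56.3 CPM after BKC at 0.5 and 53.9 CPM after BKC at 1.

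Srebf1, the regulator, was at 62.6, 77.5, 61.7 and 63.1 CPM in Control and at 47.6, 56.1, 65.9 and 36.9 CPM after BKC at 1, its lowest group. The ranges overlapped and the difference of -0.36 ± 0.17 did not pass the test (edgeR adjusted p = 0.166). Its RNA was highest after ABD at 0.125, at 59.9, 77.1, 83.1 and 86.6 CPM. The RNA level of Srebf1 does not show how much of its protein is released from the membrane.

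**Figure D3:**
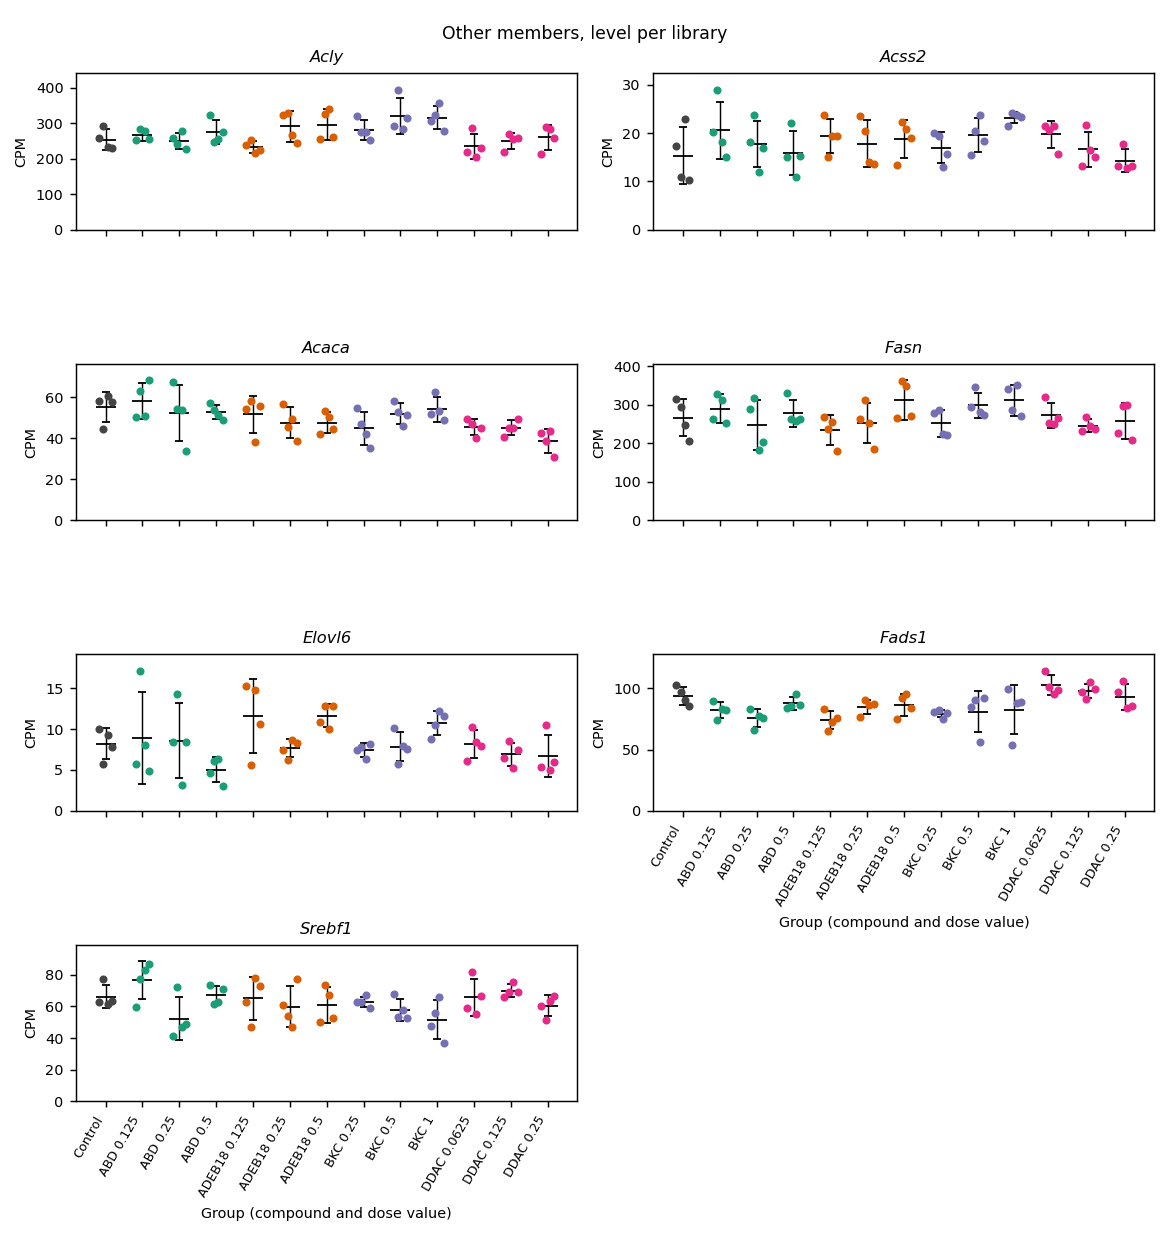
Level in CPM (y axis, from 0) of the 7 genes not called against Control, in each of 4 libraries per group (points), with the group mean and SD (black bars). Groups whose libraries do not overlap those of Control include Acaca after DDAC at 0.25 and Fads1 after ADEB18 at 0.125.

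The 250 bases before the start of the 3 genes called against Control, and of Acly for contrast, are shown because these genes moved in different directions. The sequences are those of RefSeq on assembly GRCr8, read 5′ to 3′ on the strand of the gene; 7 of the 10 genes matched that table, and Fasn, Acaca and Elovl6 did not. Capitals mark matches on either strand to the CCAAT box (CCAAT) or the GC box (GGGCGG). The windows are chr1:253231732-253231981 (minus strand) for Scd, chr5:137247905-137248154 (plus) for Elovl1, chr12:36817775-36818024 (minus) for Aacs and chr10:85963632-85963881 (minus) for Acly.
Scd: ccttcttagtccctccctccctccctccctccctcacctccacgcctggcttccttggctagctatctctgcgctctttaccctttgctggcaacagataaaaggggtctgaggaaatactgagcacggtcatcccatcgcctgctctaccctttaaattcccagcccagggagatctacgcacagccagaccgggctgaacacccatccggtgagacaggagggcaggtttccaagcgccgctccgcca
Elovl1: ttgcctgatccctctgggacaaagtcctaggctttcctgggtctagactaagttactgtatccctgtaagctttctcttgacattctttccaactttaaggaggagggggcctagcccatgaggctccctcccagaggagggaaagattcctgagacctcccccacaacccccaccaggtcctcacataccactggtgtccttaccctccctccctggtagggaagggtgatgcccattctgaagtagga
Aacs: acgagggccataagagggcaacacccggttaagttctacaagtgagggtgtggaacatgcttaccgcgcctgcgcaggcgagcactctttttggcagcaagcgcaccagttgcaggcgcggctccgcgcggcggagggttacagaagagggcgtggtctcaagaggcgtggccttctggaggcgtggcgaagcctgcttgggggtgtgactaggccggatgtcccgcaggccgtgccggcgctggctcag
Acly: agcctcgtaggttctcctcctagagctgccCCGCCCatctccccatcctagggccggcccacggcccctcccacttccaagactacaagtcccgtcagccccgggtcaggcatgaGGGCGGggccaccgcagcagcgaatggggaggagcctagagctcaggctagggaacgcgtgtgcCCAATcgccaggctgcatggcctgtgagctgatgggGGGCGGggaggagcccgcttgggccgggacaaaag
The Acly window held 1 CCAAT box and 3 GC boxes, and the other 3 windows held none. Over 33469 promoters of this length, 34.0% held a CCAAT box and 30.5% a GC box. The other motifs were searched on both strands: a sterol regulatory element (TCACNCCAC, in 0.974% of promoters), an E-box (CACGTG, 5.59%), a nuclear receptor half-site (AGGTCA, 14.1%) and a pair of such half-sites 4 bases apart (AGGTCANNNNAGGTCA, 0.00299%), which contains the half-site. None of these was in the 8 windows of the 7 matched genes, where Srebf1 has a pair of starts. A match or its absence describes only the letters of the window.

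Compounds were compared with each other at the same dose value in 12 pairs, and 3 of the 120 tests of the 10 genes were called, each with ABD as the lower side. At 0.5, ADEB18 gave higher Elovl6 than ABD by 1.21 ± 0.33 (edgeR adjusted p = 0.0323; 95% interval 0.54 to 1.88) and higher Aacs by 1.00 ± 0.30 (0.0484; 0.40 to 1.61). In neither gene did the 4 libraries of ADEB18 overlap those of ABD, which for Aacs were at 7.60, 5.44, 12.7 and 9.37 CPM. The background in that comparison was 3.51%. At 0.25, DDAC gave higher Aacs than ABD by 1.17 ± 0.31 (adjusted p = 0.0397; 0.55 to 1.78), against a background of 1.29%, although the ABD libraries, at 4.10, 8.61, 2.91 and 12.6 CPM, overlapped those of DDAC.

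These 3 calls lay close to the threshold and were lost when any of several libraries was left out. Those at 0.5 were each lost in 7 of 8 fits with 1 library left out. For Elovl6 the call went with ABD 0.5 replicate 1, 3 or 4 (adjusted p = 0.0632, 0.0588 and 0.126) or any ADEB18 0.5 library (0.0532 to 0.0832). For Aacs it went with ABD 0.5 replicate 1, 2 or 4 (0.0983, 0.149 and 0.0948) or any ADEB18 0.5 library (0.0566 to 0.186). The Aacs call at 0.25 was lost without ABD 0.25 replicate 1 or 3 (0.232 and 0.148) or DDAC 0.25 replicate 1, 2 or 3 (0.0657, 0.163 and 0.102).

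**Figure D4:**
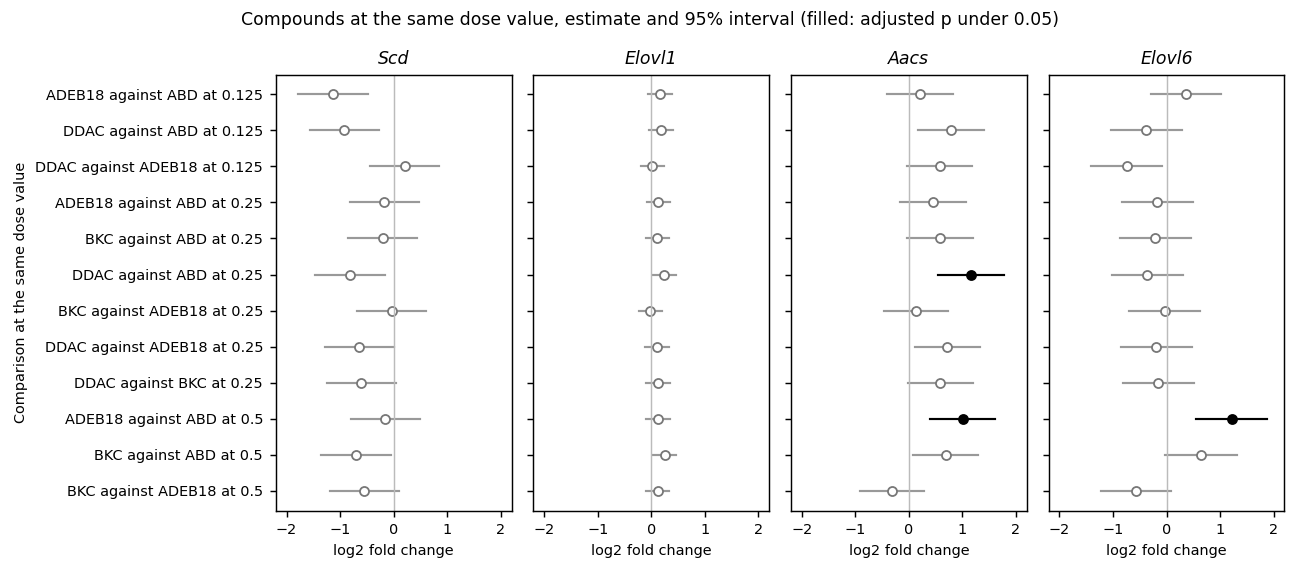
Log2 fold change (x axis) between compounds at the same dose value for Scd, Elovl1, Aacs and Elovl6, with its 95% interval from the edgeR fit; filled points have an adjusted p under 0.05. The filled points are Aacs for DDAC against ABD at 0.25 and for ADEB18 against ABD at 0.5, and Elovl6 for ADEB18 against ABD at 0.5.

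In the other 10 pairs edgeR and DESeq2 called none of the 10 genes, with 0 to 4 genes at an unadjusted p under 0.05. Backgrounds were 0.0169, 1.97 and 1.05% at 0.125 (ADEB18 against ABD, DDAC against ABD, DDAC against ADEB18). They were 0.0169, 0.129, 0, 1.31 and 0.0337% at 0.25 (ADEB18 against ABD, BKC against ABD, BKC against ADEB18, DDAC against ADEB18, DDAC against BKC), and 8.28 and 0% at 0.5 (BKC against ABD, BKC against ADEB18). BKC against ADEB18 at 0.5 left Scd between -1.19 and 0.09, Aacs between -0.91 and 0.28 and Elovl1 between -0.09 and 0.34 on the log2 scale (95% intervals). DDAC against BKC at 0.25 left Scd between -1.25 and 0.04 and Aacs between -0.01 and 1.19. The intervals still hold differences of those sizes, so a missed threshold does not show that the compounds acted alike. ADEB18 against ABD at 0.125 gave Scd at 98.2 ± 35.5 and 215 ± 40.6 CPM, with no overlap and a difference of -1.13 ± 0.32, and did not pass the test (adjusted p = 0.435).

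Whether a dose step differed between compounds was tested in 6 comparisons of a shared step. None of the 60 tests was called by edgeR or DESeq2, and 4 had an unadjusted p under 0.05 in edgeR. The backgrounds were 0.0899, 0.00562 and 0.00562% in the step from 0.125 to 0.25 (ADEB18 against ABD, DDAC against ABD, DDAC against ADEB18) and 0.045, 0.646 and 0% in that from 0.25 to 0.5 (ADEB18 against ABD, BKC against ABD, BKC against ADEB18). The lowest p was that of Elovl6 between ADEB18 and ABD in the step from 0.25 to 0.5, with a difference of 1.38 ± 0.47 (adjusted p = 0.184). ABD at 0.5 against 0.125 likewise gave no call among the 10 genes by either tool, 1 gene at an unadjusted p under 0.05, and a background of 0.0169%.

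The 10 genes did not move as a block. Over the 45 pairs of them, the correlation of log2 CPM across the 13 group means ran from -0.71 for Scd and Elovl1 to 0.81 for Elovl1 and Aacs, with a median of 0.20 and 27 pairs positive. Within groups, from the 52 libraries with group means removed, it ran from -0.29 to 0.55 (Fasn and Acly), with a median of 0.21. Scd and Elovl1, the most opposed pair across groups, had a within-group correlation of 0.11, and Fasn and Scd one of 0.53. These pairs share libraries and library scaling, and the values are given as a description. After BKC at 1 the median difference of the 10 genes from Control was 0.27, beside -0.01 for all genes tested; it was 0.05 after BKC at 0.5, 0.15 after ADEB18 at 0.5 and -0.08 after DDAC at 0.25.

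Across the 13 group means, the genes most like each of the called ones among 11517 candidates were as follows. Scd was most like Npas2 (r = 0.89), a clock factor that also enters the clock score described below, Ikzf4 (0.86) and Fhad1 (0.85). Aacs was most like Cstb, Rnf181 and Mrpl17 (0.96, 0.96 and 0.96). Elovl1 was most like Rab11a, Krtcap2 and Inf2 (0.93, 0.93 and 0.92). Among the 3 genes most like Fasn was Hmgcs1 (0.88), an enzyme of cholesterol synthesis.

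Of 24 other genes of fatty acid synthesis tested, 2 were called after BKC at 1, a share near the 10.4% of all genes. Slc25a1, the mitochondrial citrate carrier, rose after BKC at 1 (0.40 ± 0.13, edgeR adjusted p = 0.0345) and Acss1, the mitochondrial acetyl-CoA synthetase, fell (-0.54 ± 0.15, 0.0135). No gene of that list was called after BKC at 0.5, ADEB18 at 0.5 or DDAC at 0.25. In the neighbouring pathway, 11 of 23 genes of cholesterol synthesis were called after BKC at 1, all higher, with a median of 0.63 over the list. They included Cyp51 (1.18 ± 0.20, adjusted p = 0.000141), Acat2 (1.31 ± 0.27, 0.00102), Fdps (0.87 ± 0.18, 0.00121) and Idi1 (1.27 ± 0.27, 0.00155). The counts of that list were 8 of 23 after BKC at 0.5 and 10 of 23 after ADEB18 at 0.5, all higher, and 0 of 23 after DDAC at 0.25. Thus Scd was lower after DDAC at 0.25 with no cholesterol gene called, and lower after BKC at 1 with 11 of them higher. Within groups, over the 52 libraries, the correlation with the summed cholesterol list ran from 0.004 for Scd to 0.59 for Elovl1. It was 0.58 for both Aacs and Fasn.

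Among 16 genes of SREBP and LXR regulation, Mbtps1, the protease that cuts SREBP proteins, fell after BKC at 1 (-0.29 ± 0.09, edgeR adjusted p = 0.0325), as did Abcg1, a sterol exporter (-0.58 ± 0.17, 0.0264). Insig1, which holds SREBP in the endoplasmic reticulum and is itself a target, rose after ADEB18 at 0.5 (0.66 ± 0.17, 0.0174). Mylip, an LXR target that marks the LDL receptor for degradation, rose after DDAC at each dose, by 1.62 ± 0.35 at 0.0625 (0.00756), 1.60 ± 0.35 at 0.125 (0.0131) and 1.52 ± 0.35 at 0.25 (0.0162). In glycerolipid synthesis, Cds1, which makes CDP-diacylglycerol, fell after BKC at 1 (-0.67 ± 0.15, 0.00275), ADEB18 at 0.5 (-0.50 ± 0.15, 0.0425), DDAC at 0.0625 (-0.73 ± 0.15, 0.00476) and DDAC at 0.25 (-0.76 ± 0.15, 0.0051). Of 20 genes of fatty acid oxidation, Hadha (0.45 ± 0.14, 0.0353) and Hadhb (0.62 ± 0.18, 0.0235), the subunits of the mitochondrial trifunctional protein, rose after BKC at 1. Of all genes tested, 10.4% were called after BKC at 1 and 4.66% after ADEB18 at 0.5. After DDAC at 0.0625, 0.125 and 0.25 the share was 2.32, 1.48 and 2.47%. The genes in this paragraph were named because they were called, and they do not show that their lists moved as a whole.

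Markers of other cell types also differed from Control in some of the groups with called genes. Sums of recruited monocyte and macrophage, endothelial and proliferation genes are given below. They lay outside the Control range after BKC at 0.5 and 1 and ADEB18 at 0.5, and overlapped it after DDAC at 0.25. The alveolar type 2 sum overlapped the Control range in each of these groups, and the club cell sum in all but ADEB18 at 0.5. The alveolar type 1 sum overlapped it after ADEB18 at 0.5 (5935 to 7662 CPM, beside 7342.5 to 10718 CPM in Control) and DDAC at 0.25. Of 14 markers of recruited monocytes and macrophages, 10 were higher after BKC at 1, and the summed level of the 14 was 2785 to 5486 CPM, beside 1822 to 2321 CPM in Control. It was 2801 to 5018 CPM after BKC at 0.5, 3305 to 3462 CPM after ADEB18 at 0.5 and 2259 to 2993 CPM after DDAC at 0.25. Alveolar type 1 markers were lower for 5 of 11 after BKC at 1, and of 12 alveolar type 2 markers 3 were higher and 2 lower. All marker counts in this paragraph are of called genes after BKC at 1, where 10.4% of all genes tested were called. Endothelial markers were lower for 3 of 13 after BKC at 1, with a summed level of 2327 to 3392 CPM beside 3701 to 4790 CPM in Control; the sum was 1950 to 3249 CPM after BKC at 0.5, 2793 to 3347 CPM after ADEB18 at 0.5 and 3409 to 4707 CPM after DDAC at 0.25. Proliferation genes were higher for 9 of 15 after BKC at 1, with sums of 807 to 1267 CPM beside 452 to 604 CPM in Control, 815 to 1616 CPM after BKC at 0.5, 882 to 1006 CPM after ADEB18 at 0.5 and 481 to 770.1 CPM after DDAC at 0.25. The part of these shifts in the levels of Aacs, Elovl1 and Scd was not tested.

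Adipocyte markers varied between libraries of the same group. Within groups, over the 52 libraries, their correlation with the genes was highest for Elovl6 (0.64), followed by Acss2 (0.45), Fasn (0.35) and Scd (0.30); with 10 cardiac muscle genes it was 0.61 for Elovl6 and 0.55 for Acss2. For the Elovl6 comparison at 0.5, the summed adipocyte level was 236 to 326 CPM after ADEB18 and 258 to 518 CPM after ABD, and the cardiac sum 245 to 2294 CPM and 109 to 2299 CPM, so both sums overlapped. The adipocyte sum, also used for the correlations above, was weighted towards Lipe. Median counts per library were 2628 for Lipe, 331.5 for Cfd, 13.5 for Adipoq and 5 for Plin1. Overlap of the sum therefore does not show overlap of the markers with few counts. The summed adipocyte level was 346 to 641 CPM in Control, 283 to 589 CPM after BKC at 1, 289 to 447 CPM after BKC at 0.5 and 253 to 330 CPM after DDAC at 0.25. None of the 12 markers was called in these 3 comparisons, and all 12 differences were negative after DDAC at 0.25, where Plin1, Lep and Retn were at 0. With the mean log2 CPM of the 12 markers as a covariate, Scd differed from Control by -0.90 after BKC at 0.5 (edgeR adjusted p = 0.0458), -1.28 after BKC at 1 (0.0041) and -1.19 after DDAC at 0.25 (0.0337), and the other 8 calls of the 10 genes were kept as well. This fit also called Acss2 after BKC at 1, Aacs after DDAC at 0.25 and Fasn for ADEB18 at 0.5 against 0.125, each of which missed the threshold without the covariate. The covariate was 1.25 to 4.62 in Control and 0.62 to 0.96 after DDAC at 0.25. These ranges did not overlap, so in that comparison the covariate and the treatment cannot be told apart, whether a call was kept or gained.

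The clock genes also differed between groups. A score was taken as the mean log2 CPM of Dbp, Tef, Hlf, Nr1d1, Nr1d2, Per2, Per3 and Ciart minus that of Bmal1, Npas2 and Clock. It was -0.05 to 0.67 in Control, -0.37 to 0.64 after ABD at 0.125 and 0.40 to 1.88 after ABD at 0.5. In the other 10 dosed groups the lowest library was at 1.16, with 1.36 to 2.72 after BKC at 1 and 2.79 to 3.59 after DDAC at 0.25. With this score as a covariate, chosen after the data were seen, the call of Scd was kept after BKC at 1 (-1.89, edgeR adjusted p = 0.00423) and at 0.5 (-1.63, 0.0325). The calls against Control of Scd after DDAC at 0.25 (-2.25, 0.118), Aacs after BKC at 1 (0.86, 0.169) and ADEB18 at 0.5 (0.84, 0.206), and Elovl1 after BKC at 1 (0.33, 0.124) were lost. So were those of Aacs against ABD at 0.25 (0.89, 0.255) and 0.5 (0.93, 0.0716), while Aacs between ADEB18 doses, Elovl1 between BKC doses and Elovl6 at 0.5 kept theirs. At 0.25 the scores of ABD (1.47 to 2.08) did not overlap those of DDAC. In that pair the score and the compound cannot be told apart. The scores of the Control libraries did not overlap those of BKC at 0.5 (1.68 to 3.02), BKC at 1, ADEB18 at 0.5 (1.44 to 2.29) or DDAC at 0.25, so in each of the called comparisons with Control the score and the treatment cannot be told apart, whether the call was kept or lost.

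**Figure D5:**
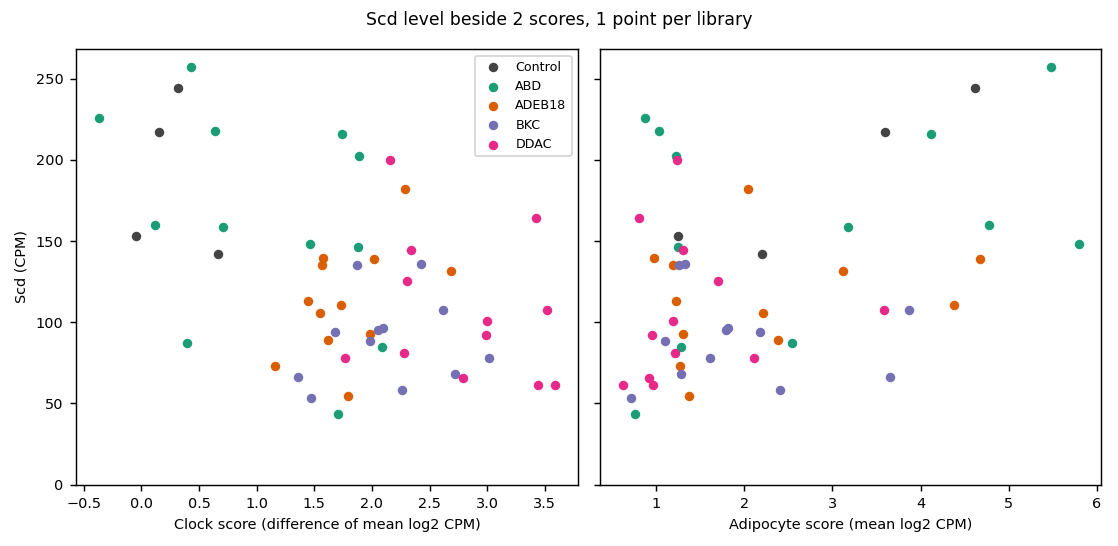
Scd level in CPM (y axis) of the 52 libraries beside the clock score (left) and the mean log2 CPM of 12 adipocyte markers (right), coloured by compound. The Control libraries lie at clock scores of -0.05 to 0.67, and the DDAC libraries at 0.25, among the lowest in Scd, lie at 2.79 to 3.59.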

How the data were processed

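The deposited tables give whole-number counts per gene symbol for each library, per the file headers. Libraries were made from 500 ng of Trizol RNA with the Lexogen kit for sequencing of transcript ends, per the labels' protocols. Tools in the submitters' processing notes are HTSeq, STAR and fastp, with the build mRatBN7.2, and no order or version. The strand setting and gene annotation are not stated in what was used here. The labels do not name the animal behind each library, so p-values measure only the spread between these libraries.

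Counts were scaled by TMM, filtered by filterByExpr and fitted with edgeR 4.0.16 (R 4.3.3, limma 3.58.1; glmQLFit, glmQLFTest) over 52 libraries with 1 term per group, leaving 17796 genes and 39 residual degrees of freedom. Two-sided p-values were Benjamini-Hochberg adjusted over all genes, in 34 comparisons and 1 test over all groups. Alternatives were RLE factors, no filter, DESeq2 1.42.0, a fit of the compared groups alone, a replicate block, each library left out, and unadjusted p under 0.05 with 2-fold. CPM use TMM library sizes, and log2 CPM a prior count of 2. Scripts were tested on simulated data.

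All 10 genes were named in every comparison. Of other lists, up to 4 called genes with the smallest adjusted p were named, with Scd2 added as a copy, and of each of the genes called against Control the 3 most alike of at least 5 CPM. Mylip and Cds1 are followed across doses. Genes and lists were chosen with earlier results of these data known. The 2 covariates were added after the data were seen. Residual correlations over 5000 genes averaged 0.0138 between libraries of the same replicate number and -0.00465 between others. These means showed little pairing by number. Of 312 same-number pairs, 125 exceeded 0.1, and the share among other pairs was not counted. An effect shared by replicate number in single genes was not tested.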

Additional observations from a re-analysis of the deposited data

Results flagged for a closer look

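In 6 of the 130 sets of 4 libraries (10 genes in 13 groups), 1 library lay far from the other 3 by Dixon's criterion (a gap above the 95% critical share of the range); chance alone gives about 1 in 20. They were Fasn after ABD at 0.5 (replicate 1, 331 CPM, high), Scd after DDAC at 0.25 (replicate 2, 92.3 CPM, high), Acss2 after DDAC at 0.0625 (replicate 4, 15.6 CPM, low) and at 0.25 (replicate 2, 17.8 CPM, high), Elovl1 after ADEB18 at 0.125 (replicate 2, 155 CPM, high) and Srebf1 in Control (replicate 2, 77.5 CPM, high). Of these, Scd after DDAC at 0.25 belongs to a called comparison.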

How the results depend on the processing

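Of 35 counts of called genes (34 comparisons and the test over all groups), 25 stayed within 1.5 times under every alternative run, and 10 did not. Of the 25, 24 were counts of 0 that stayed at 0. The other was the test over all groups, whose count of 5 ran from 4 to 5 with 1 library left out. Each comparison with a called gene was among the 10 that moved. Of 176 alternatives of the 11 called values, 131 kept the call, 45 lost it and 0 changed direction. For ADEB18 at 0.5 against Control the count was 1, and 0 with the clock score. For BKC at 0.5 it was 1, and 2 with the replicate block and with DESeq2, each adding Acly. For BKC at 1 it was 3, and 1 with the clock score. For DDAC at 0.25 it was 1, and 2 with the replicate block (adding Acaca) or the adipocyte score (adding Aacs), 3 with DESeq2 (adding both) and 0 with the clock score. It was 1 for ADEB18 at 0.5 against 0.125, and 2 with the adipocyte score (adding Fasn), and 1 for BKC at 1 against 0.25, and 0 under the 2-fold rule. For DDAC against ABD at 0.25 it was 1, and 0 with the clock score and in a fit of the compared groups alone. For ADEB18 against ABD at 0.5 it was 2, and 1 with no filter, the replicate block or the clock score. The 2-fold rule gave 1 instead of 0 for ADEB18 against ABD at 0.125 and in their step from 0.25 to 0.5. The cause was not tested.

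With 1 library left out, counts ran from 0 to 1 for ADEB18 at 0.5, from 0 to 2 for BKC at 0.5, from 3 to 4 for BKC at 1 (Acss2 joined without Control replicate 3) and from 0 to 2 for DDAC at 0.25 against Control. They ran from 0 to 1 for ADEB18 and for BKC between doses, from 0 to 3 for DDAC against ABD at 0.25, from 0 to 1 for ADEB18 against ABD at 0.5, and from 0 to 1 for their step from 0.25 to 0.5. The replicate block was run although the mean residual correlations showed little pairing by replicate number. Over all genes, BKC at 1 gave 1842 calls, and 851 with the compared groups alone, 970 under the 2-fold rule and 1159 with the clock score. BKC at 0.5 gave 1629, and 605, 767 and 588 under the same settings. ADEB18 at 0.5 gave 829, and 1279 with DESeq2 and 459 with the clock score. DDAC at 0.25 gave 439, and 810 with DESeq2, 781 under the 2-fold rule and 0 with the clock score. Elovl6 and Aacs have few counts, which limits their precision.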
